A study of Homo sapiens with 24 samples.

Results

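The SOCS family and STAT5 genes were taken as 10 rows by name, CISH, SOCS1 to SOCS7, STAT5A and STAT5B, out of 25680 genes in each of 3 tables, and all 10 passed the filter on low values in every table. The series measured polyA RNA of established human acute myeloid leukaemia cell lines by sequencing, in 24 libraries that form 8 groups of 3. MV411 cells received DMSO (duration not stated in the labels), MI-503 at 2.5 µM for 3 days, AC220 at 3 nM for 24 hours, or both drugs on those schedules. MOLM13 and OCI-AML3 cells received DMSO for 4 days or 2.5 µM MI-503 for 4 days. MI-503 is a compound that blocks the contact between menin and MLL proteins, and AC220 (quizartinib) inhibits the receptor tyrosine kinase FLT3. MV411 and MOLM13 are known to carry an MLL fusion and an internal tandem duplication of FLT3, and OCI-AML3 to carry mutant NPM1 without an MLL fusion. Each line is a single established line, and AC220 was tested in MV411 only. The MI-503 exposure of MV411 was shorter than that of the other lines, so line and exposure time cannot be told apart. Within MV411 the AC220 exposure was shorter than the MI-503 exposure, so drug and exposure time cannot be told apart between the single drugs.

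STAT5A and STAT5B are transcription factors that cytokine receptors, through JAK kinases, and activated FLT3 switch on by phosphorylation. The paired proteins enter the nucleus and bind sites with the pattern TTCNNNGAA. CISH and several SOCS genes are among the targets of STAT proteins, and their products feed back on the same receptors. Each carries an SH2 domain, which docks on phosphorylated tyrosines, and a SOCS box, which recruits a ubiquitin ligase built on elongins and cullin 5. In leukaemia with mutant FLT3, STAT5 is known to be active without cytokine. RNA levels do not report phosphorylation of the STAT5 proteins.

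The promoter of CISH is shown because it was the only one of the 10 promoters found for the genes studied that held the STAT pattern, and because CISH is the member most often read as STAT5 output. RefSeq promoters of 300 bases (250 before to 50 after a start site, GRCh38.p14) were matched for 7 of the 10 genes, and SOCS2, SOCS5 and SOCS7 had no match. The CISH promoter lies at chr3:50611725-50612024 on the minus strand and is printed 5′ to 3′, with the matches to TTCNNNGAA in capitals.
CISH promoter: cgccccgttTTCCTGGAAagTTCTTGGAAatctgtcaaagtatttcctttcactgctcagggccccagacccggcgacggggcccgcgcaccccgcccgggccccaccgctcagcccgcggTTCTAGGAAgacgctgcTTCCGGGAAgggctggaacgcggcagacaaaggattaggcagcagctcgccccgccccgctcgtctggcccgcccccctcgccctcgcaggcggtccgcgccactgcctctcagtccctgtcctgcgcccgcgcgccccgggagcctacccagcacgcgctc
It held 4 matches that do not overlap, TTCCTGGAA at -241, TTCTTGGAA at -230, TTCTAGGAA at -129 and TTCCGGGAA at -112, counted from the start site to the first base of the match. The pattern reads the same on both strands. Among 35116 promoters of that length, 7.66% held at least 1 match, 0.456% at least 2, and 7 at least 4. Among 11 promoters of STAT5 targets outside the family, 1 held the pattern, also with at least 4 matches. A match is a run of letters, and binding was not measured.

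Levels below are reads per gene divided by a median-of-ratios factor for each library, computed within each line, and changes are log2 differences ± standard error on log2(level + 1) with 3 libraries per group. Adjusted p-values are from limma with Benjamini-Hochberg adjustment over all genes tested, and 0.05 was the threshold. The libraries held 23168887 to 26596469 reads on genes in MV411, 23281330 to 27240357 in MOLM13 and 44364964 to 72994481 in OCI-AML3. The deposited scaling is named, for every line, after ERCC, a synthetic control RNA. In MV411 it nevertheless gives the same changes as the median-of-ratios factors. In MOLM13 and OCI-AML3 the deposited scaling shifts every gene with MI-503 by -0.53 and -0.16. Changes there are therefore given relative to the median gene, and values on the deposited scale follow. Which of the scales lies closer to RNA per cell was not tested. Less RNA per cell and fewer cells of a kind cannot be told apart in such data. All 8 myeloid markers were past the filter in MV411 and OCI-AML3 and 7 of 8 in MOLM13, where CD14 was not. Their summed level in MV411 was 1932 to 2014 RPM (reads scaled to a common library total) under DMSO, 7837 to 8162 under MI-503, 3152 to 3337 under AC220 and 8402 to 8527 with both, in MOLM13 598 to 620.0 and 1250.0 to 1365 under DMSO and MI-503, and in OCI-AML3 1477 to 1518 and 1699 to 1750.0. The myeloid marker sum thus moved with the drugs, and its part in the results was not tested. Of 5 markers of T and NK cells only NKG7 was past the filter in any line, and their sum went from 34.8 to 35.1 RPM to 88.2 to 97.4 between DMSO and both drugs in MV411, and from 10.1 to 10.5 to 29.8 to 33.5 with MI-503 in MOLM13. Of 5 B cell markers 4 were past it in MV411, 3 in MOLM13 and 2 in OCI-AML3, with sums of 6.29 to 6.95, 53.0 to 54.5 and 0.740 to 1.03 RPM under DMSO and 2.97 to 3.48, 35.1 to 39.6 and 0.654 to 0.873 under MI-503, so that the sums in MV411 and MOLM13 were lower. In MV411 the B cell sum was 4.74 to 6.75 under AC220 and 3.17 to 4.01 with both, and MS4A1 was at 0 in MV411 and MOLM13.

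**Figure D1:**
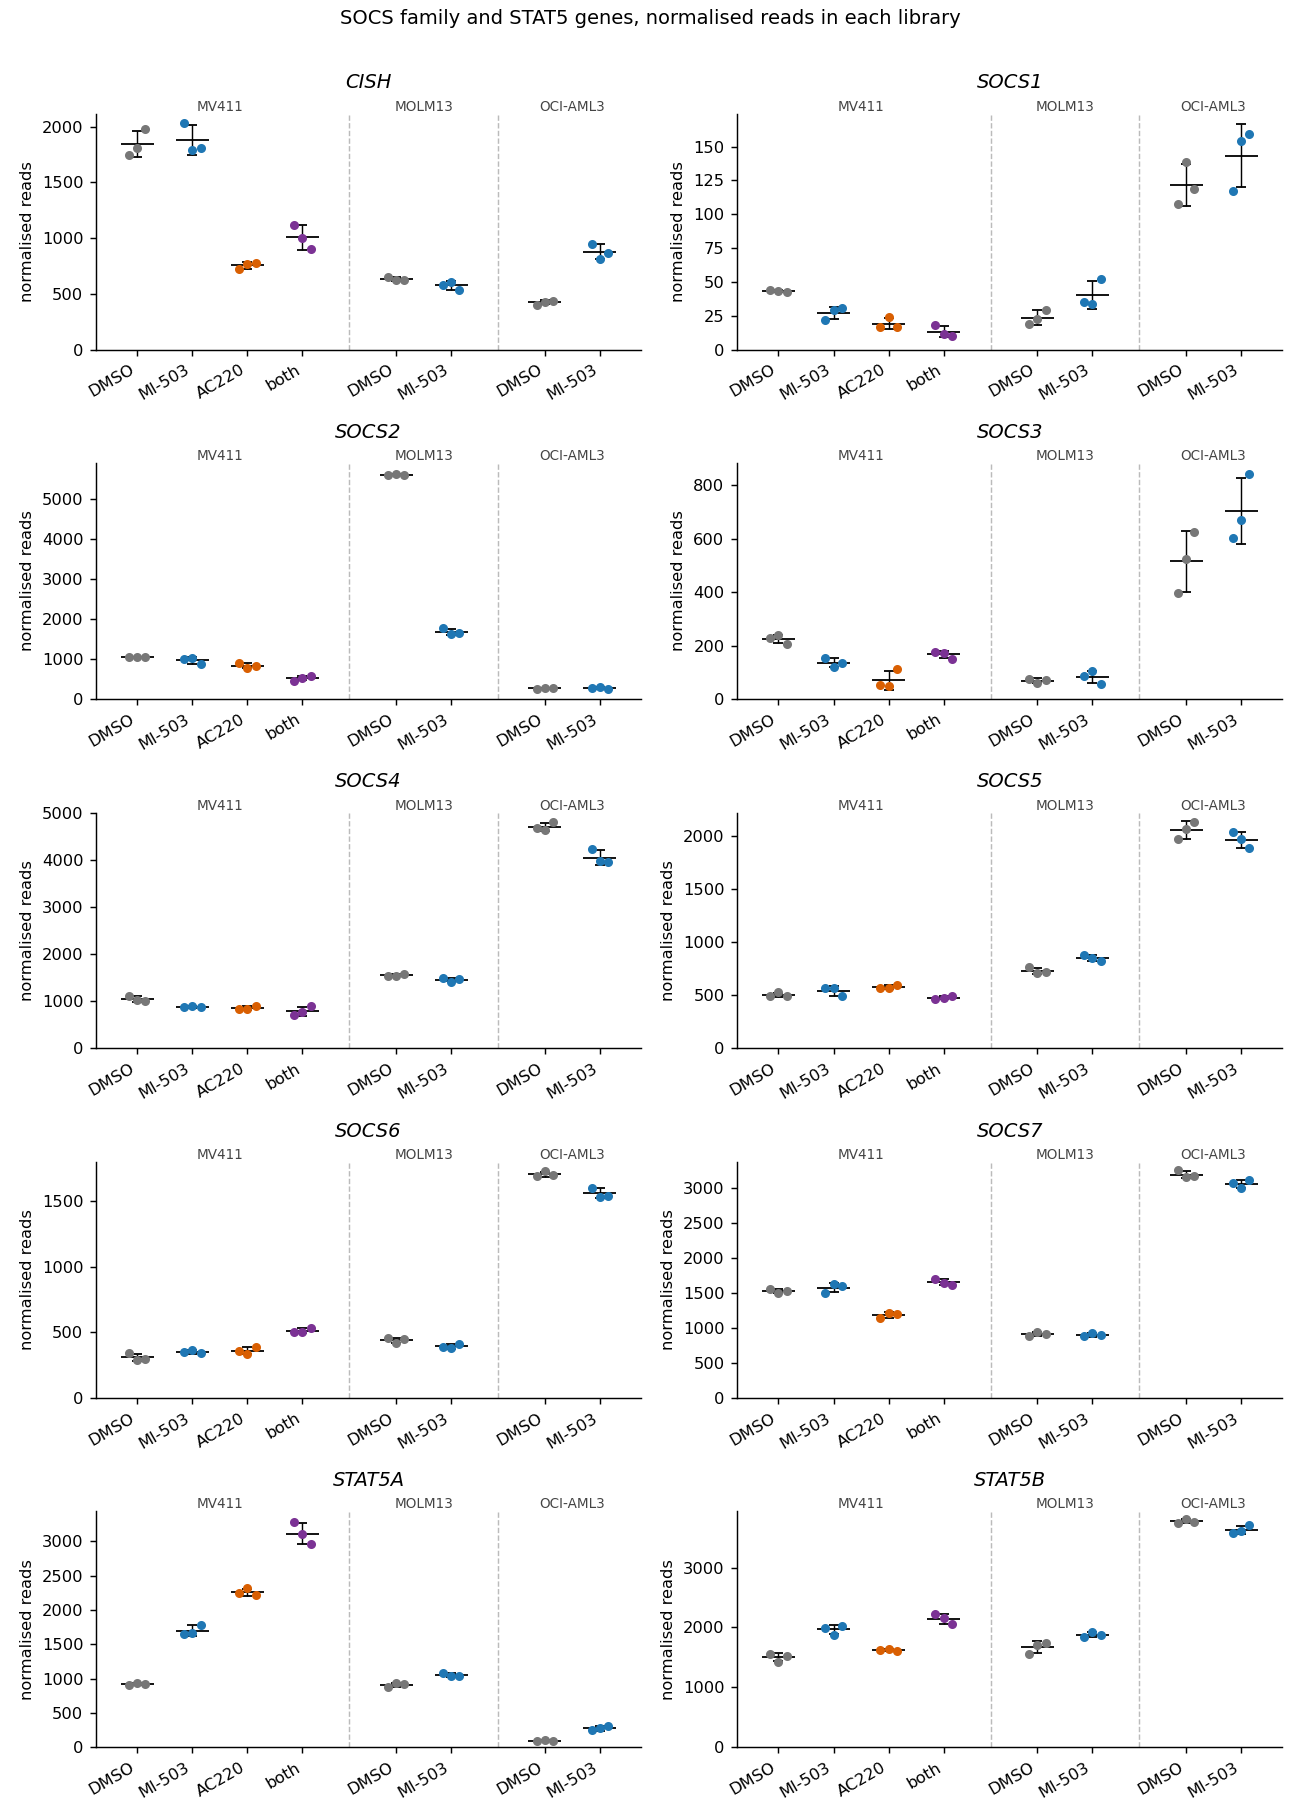
Level of each gene (y axis, normalised reads, linear from 0) in every library (points), with the group mean and SD (bars), for MV411, MOLM13 and OCI-AML3 (x axis, treatment; "both" is the combination). Each line has its own scale, so heights are compared within a line. STAT5A climbs from about 928 to 3109.7 in MV411, and SOCS2 drops from 5618 to 1679 in MOLM13.

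The untreated lines differed in which of these genes led. Per kilobase of annotated exon, MV411 cells in DMSO had CISH first at 360.4 ± 23.3 normalised reads, then STAT5B (233 ± 10.4), SOCS7 (177 ± 2.85), STAT5A (161 ± 2.59), SOCS2 (156 ± 0.395), SOCS4 (149 ± 8.73), SOCS3 (82.2 ± 5.91), SOCS5 (66.3 ± 2.72), SOCS6 (51.4 ± 4.98) and SOCS1 (24.1 ± 0.502). Of neighbours in that order, SOCS2 and SOCS4 overlapped and the others did not. MOLM13 cells in DMSO were led by SOCS2 at 829 ± 2.81, far above STAT5B (259 ± 15.1) and SOCS4 (221 ± 2.92), with STAT5A, CISH, SOCS7, SOCS5, SOCS6, SOCS3 and SOCS1 (13.1 ± 3.00) following and no neighbours overlapping. OCI-AML3 cells in DMSO were led by SOCS4 (669 ± 11.9), STAT5B (586 ± 5.72) and SOCS7 (370.0 ± 6.04), and SOCS2 (39.6 ± 2.11) and STAT5A (16.5 ± 1.78) came last. Again no neighbours overlapped. The tables were normalised separately, so only the order within a line is read here. Lengths were merged over all annotated exons of a gene, for CISH 5112 bases of a gene of 5342. The order depends on these lengths, and the lengths of the transcripts present were not measured.

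STAT5A, the member of the STAT5 pair best known from prolactin signalling, rose with each treatment of MV411. Its level was 913, 943 and 927 under DMSO, 1646, 1658 and 1785 under MI-503, 2239, 2318 and 2222 under AC220 and 3273, 3099 and 2958 with both drugs. The 4 groups did not overlap and stood in that order. The change was 0.87 ± 0.0488, adjusted p = 3.28e-13 under MI-503, 1.28 ± 0.0488, adjusted p = 4.69e-17 under AC220 and 1.74 ± 0.0488, adjusted p = 1.21e-19 with both, the last a 3.35-fold increase. The combination exceeded each drug (0.87 ± 0.0488 over MI-503 and 0.46 ± 0.0488 over AC220), yet it lay below the sum of the single changes (interaction -0.41 ± 0.0691, adjusted p = 4.11e-05).

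STAT5B, the neighbouring paralog, moved less. Its level was 1555, 1428 and 1531 under DMSO, 1998, 1877 and 2029 under MI-503, 1629, 1644 and 1599.5 under AC220 and 2218, 2160.5 and 2056 with both. MI-503 raised it by 0.39 ± 0.0491, adjusted p = 3.42e-07, and the combination by 0.51 ± 0.0491, adjusted p = 1.23e-09. With AC220 it passed narrowly (0.11 ± 0.0491, adjusted p = 0.0450), a call lost on leaving out any of 5 of the 6 libraries compared. The lowest AC220 library lay above the highest DMSO library by a small margin only. The interaction of the drugs on STAT5B did not pass (0.01 ± 0.0694, adjusted p = 0.894, 95% interval -0.13 to 0.16).

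The balance of the pair therefore moved within each library. STAT5A reads per STAT5B read were 0.587, 0.660 and 0.606 in MV411 under DMSO, 0.824, 0.883 and 0.880 under MI-503, 1.37, 1.41 and 1.39 under AC220 and 1.48, 1.43 and 1.44 with both. STAT5B had more reads in every DMSO and MI-503 library and STAT5A in every AC220 and combination library. Per length of exon the mean ratios were 0.692, 0.966, 1.56 and 1.62. An exact permutation test over all 369600 assignments of the 12 libraries to 4 groups gave p = 6.49e-05, the smallest it can give. In MOLM13 the ratio was 0.557, 0.546 and 0.529 under DMSO and 0.592, 0.535 and 0.552 under MI-503, and these overlap. OCI-AML3 stood apart, with 0.0255, 0.0276 and 0.0225 under DMSO and 0.0687, 0.0761 and 0.0838 with MI-503. A ratio within a library does not depend on the scaling. The genes lie next to each other on chromosome 17, STAT5B at chr17:42199168-42276707 on the minus strand and STAT5A at chr17:42287547-42311943 on the plus strand (hg38, GENCODE v29), 10839 bases apart. Of the 50-base stretches of STAT5A transcripts, 8.61% also occur in another gene, all of them in STAT5B, so reads there cannot be assigned with certainty.

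**Figure D2:**
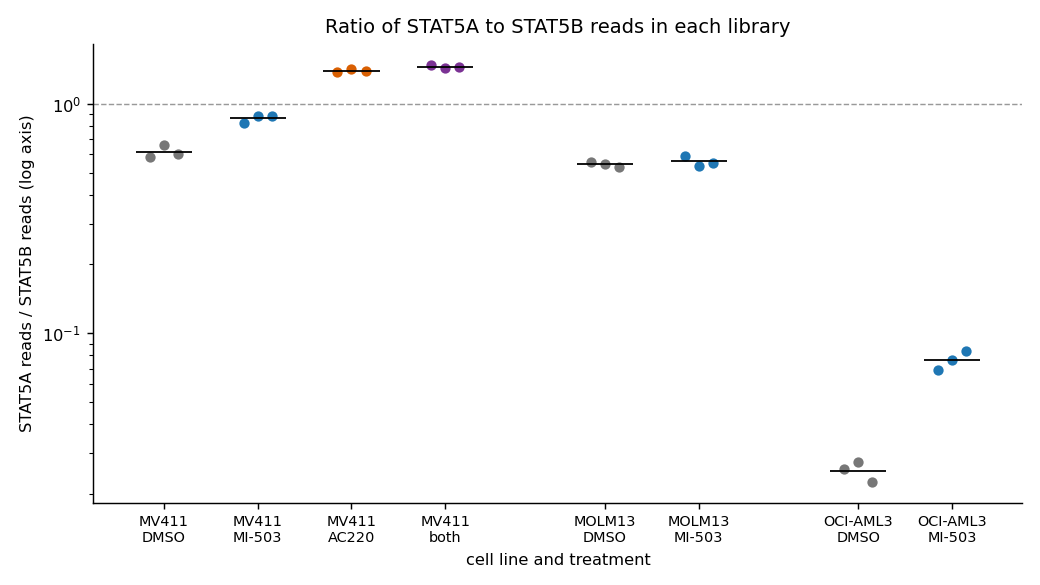
STAT5A reads divided by STAT5B reads (y axis, log scale, no unit) in each library (points) and the group mean (bar), by line and treatment (x axis); the dashed line marks equal reads. MV411 crosses from 0.618 with DMSO to 1.45 with both drugs, while OCI-AML3 stays at or under 0.0838.

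CISH, whose product binds cytokine receptors and blocks STAT5 docking, responded to AC220 and not detectably to MI-503 in MV411. The level was 1746, 1806 and 1976 under DMSO, 2034, 1789 and 1808 under MI-503, 722, 770.2 and 774 under AC220 and 1116, 1002 and 898 with both. DMSO and MI-503 libraries overlapped, and all AC220 and combination libraries lay below them. AC220 lowered CISH 2.44-fold (-1.28 ± 0.0691, adjusted p = 3.84e-14) and the combination 1.84-fold (-0.88 ± 0.0691, adjusted p = 3.36e-11), while MI-503 gave 0.03 ± 0.0691, adjusted p = 0.764 (95% interval -0.12 to 0.17). With MI-503 added, CISH stood higher than with AC220 alone (0.41 ± 0.0691, adjusted p = 2.57e-05), and the interaction was 0.38 ± 0.0978, adjusted p = 0.00296. MAPKAPK3, a kinase gene on the opposite strand, shares 218 exon bases with CISH (4.26% of its exon bases). Its level was 5515 ± 312 with DMSO (SD, n = 3), 5608 ± 149 under AC220 and 5237 ± 151 with both, and its change with AC220 did not pass (0.03 ± 0.0426, adjusted p = 0.599).

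SOCS2, a feedback regulator best known for restraining growth hormone signalling, fell most when the drugs were joined. Its level in MV411 was 1057, 1056 and 1052 under DMSO, 1006, 1021 and 876 under MI-503, 896, 776 and 832 under AC220 and 463, 538 and 573 with both. The combination libraries lay below all others. MI-503 alone did not pass (-0.13 ± 0.0745, adjusted p = 0.143, 95% interval -0.28 to 0.03), although it did, at an adjusted p of 0.0457, when only those groups entered the fit. With AC220 the change was -0.34 ± 0.0745, adjusted p = 2.64e-04, and with both drugs -1.01 ± 0.0745, adjusted p = 9.26e-12, a 2.02-fold decrease. That exceeded the sum of the single changes, with an interaction of -0.55 ± 0.105, adjusted p = 1.97e-04.

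SOCS3, which inhibits JAK kinases bound to receptors of the IL-6 and G-CSF type, had the largest departure from additivity among the 10 genes. The level was 228, 239 and 207 under DMSO, 153, 120.5 and 134 under MI-503, 51.1, 49.0 and 110.4 under AC220 and 177, 173 and 151 with both. Each drug alone lowered SOCS3, and the combination libraries sat between those of DMSO and AC220. The change was -0.73 ± 0.194, adjusted p = 0.00249 under MI-503, -1.77 ± 0.194, adjusted p = 1.61e-08 under AC220 and -0.43 ± 0.194, adjusted p = 0.0467 with both. Of these the last is fragile, since it was lost with DESeq2 (adjusted p = 0.125), with TMM factors (adjusted p = 0.0505) and on leaving out any of 5 of the 6 libraries. The third AC220 library stood apart from the other two. Without it the AC220 change was -2.14 and the interaction 2.44, against -1.77 and 2.06 ± 0.274 (adjusted p = 1.72e-06) with all libraries. The combination stood above AC220 alone by 1.34 ± 0.194, adjusted p = 3.12e-06.

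SOCS1, the other direct inhibitor of JAK kinases and a brake on interferon gamma signalling, was the least abundant member per length in MV411. Its level was 44.0, 43.4 and 42.2 under DMSO, 22.2, 29.4 and 30.3 under MI-503, 16.4, 24.0 and 17.0 under AC220 and 18.1, 11.3 and 10.3 with both. No treated library reached the DMSO libraries. The change was -0.66 ± 0.245, adjusted p = 0.0245 under MI-503, -1.16 ± 0.245, adjusted p = 1.87e-04 under AC220 and -1.68 ± 0.245, adjusted p = 1.31e-06 with both. The interaction for SOCS1 did not pass (0.14 ± 0.347, adjusted p = 0.782). The MI-503 call was lost without any single DMSO library or without the first MI-503 library (change -0.74 to -0.52 over the libraries left out). Levels this low rest on 10 to 46 reads per library in MV411. RMI2, a genome stability gene on the opposite strand, overlaps the SOCS1 gene without sharing exon bases, and it fell from 738 ± 24.6 with DMSO to 103 ± 8.21 with AC220 (-2.84 ± 0.0877, adjusted p = 8.67e-19). The part of RMI2 reads in the SOCS1 values was not tested.

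SOCS7 and SOCS6, which have been tied to insulin and receptor tyrosine kinase signalling, took other courses. SOCS7 was 1549, 1501 and 1533 under DMSO, 1503, 1626 and 1595 under MI-503, 1139.6, 1211 and 1199 under AC220 and 1701, 1641 and 1619 with both. It fell with AC220 alone (-0.37 ± 0.0485, adjusted p = 3.21e-07) and not with AC220 in the presence of MI-503, where it stood slightly above DMSO (0.11 ± 0.0485, adjusted p = 0.0357, lost with equal totals, with only those groups in the fit and on leaving out any of 4 of 6 libraries). The interaction for SOCS7 was 0.44 ± 0.0686, adjusted p = 1.58e-05. SOCS6 was 342, 288 and 293 under DMSO, 346, 367 and 341 under MI-503, 356, 332 and 391 under AC220 and 501, 499 and 534 with both. All combination libraries of SOCS6 lay above all others, a change of 0.74 ± 0.0813, adjusted p = 1.40e-08. The smaller single-drug changes of SOCS6, 0.20 ± 0.0813, adjusted p = 0.0414 and 0.23 ± 0.0813, adjusted p = 0.0150, overlapped DMSO and were lost on leaving out any of 5 and 3 of 6 libraries. The interaction for SOCS6 (0.31 ± 0.115, adjusted p = 0.0306) was lost on leaving out any of 6 of 12 libraries.

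SOCS4 and SOCS5, close relatives linked to EGF receptor turnover, changed little. SOCS4 ran from 1013 to 1123 in the DMSO libraries and from 699.7 to 892 with both drugs. Against DMSO it fell throughout, at -0.25 ± 0.0710, adjusted p = 0.00457 for MI-503, -0.30 ± 0.0710, adjusted p = 6.77e-04 for AC220 and -0.42 ± 0.0710, adjusted p = 1.12e-05 for both. Its interaction did not pass (0.13 ± 0.101, adjusted p = 0.336). SOCS5 ran from 463 to 599 over the 12 libraries. It rose with AC220 (0.20 ± 0.0692, adjusted p = 0.0118), while MI-503 (0.10 ± 0.0692, adjusted p = 0.216) and both drugs (-0.07 ± 0.0692, adjusted p = 0.343) did not pass. Its combination stood below the sum of the single changes (-0.37 ± 0.0978, adjusted p = 0.00344).

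Counted over the genes studied in MV411, 3 rose and 3 fell under MI-503, where 29.8% of all genes tested were called higher and 30.7% lower. With AC220, 4 rose and 6 fell, beside 37.7% and 37.2% of all genes. With both drugs 4 rose and 5 fell, beside 39.3% and 40% of all genes. Their median changes were 0.03, -0.32 and -0.24 in these comparisons, against -0.00493, 0.0123 and 0.00328 for all genes. The combination stood higher than MI-503 for SOCS6, STAT5A and STAT5B and lower for CISH, SOCS1, SOCS2, SOCS4 and SOCS5 (34.9% and 33.6% of all genes), while SOCS3 (0.30) and SOCS7 (0.07) did not pass, a total of 8 that was 5 on leaving out the second MI-503 library, the first combination library or the second. Against AC220 it stood higher for CISH, SOCS3, SOCS6, SOCS7, STAT5A and STAT5B and lower for SOCS2 and SOCS5 (27.4% and 28.1%), and SOCS1 (-0.52) and SOCS4 (-0.12) did not pass. AC220 stood higher than MI-503 for STAT5A and lower for CISH, SOCS2, SOCS3, SOCS7 and STAT5B (33.8% and 34.5%), and SOCS1 (-0.50), SOCS4 (-0.05), SOCS5 (0.10) and SOCS6 (0.03) did not pass. The interaction was called for 7 genes, positive for CISH, SOCS3, SOCS6 and SOCS7 and negative for SOCS2, SOCS5 and STAT5A, beside 20.9% positive and 21.6% negative among all genes. These comparisons share libraries. AC220 was given for a shorter time than MI-503, so drug and exposure time cannot be told apart where AC220 is set against MI-503.

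**Figure D3:**
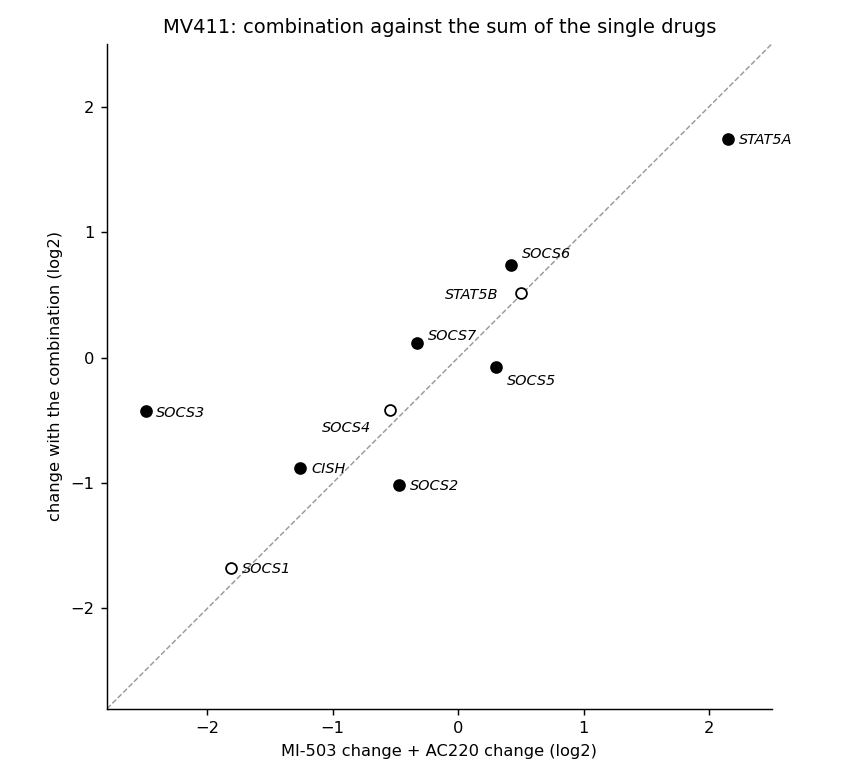
Change with the combination (y axis, log2 against DMSO) against the sum of the MI-503 and AC220 changes (x axis, log2) for the 10 genes in MV411; the dashed line marks equality and filled points passed the interaction test. SOCS3 lies farthest above the line (interaction 2.06) and SOCS2 farthest below it (-0.55).

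In MOLM13 the main change with MI-503 was in SOCS2. Its level was 5613, 5639 and 5603 under DMSO and 1773, 1623 and 1643 with MI-503. The groups were far apart and each was tight. The change was -1.74 ± 0.0345, adjusted p = 2.26e-16, a 3.35-fold decrease, and -2.27 ± 0.0928 on the deposited scale. SOCS2-AS1, a transcript of the opposite strand that shares 277 exon bases with SOCS2 (4.09% of its exon bases), went from 236 ± 12.7 to 55.3 ± 4.56 (-2.08 ± 0.112, adjusted p = 8.09e-11). Whether counting used strand was not given in the sources used here, so reads in the shared bases cannot be told apart. In MV411 SOCS2-AS1 rose from 35.4 ± 4.32 with DMSO to 62.6 ± 6.46 with both drugs (0.81 ± 0.172, adjusted p = 1.79e-04), the opposite of SOCS2.

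The other genes changed less than SOCS2 in MOLM13. STAT5A went from 871, 931 and 925 to 1085, 1031 and 1037 (0.21 ± 0.0445, adjusted p = 6.48e-04) and STAT5B from 1561, 1705 and 1747 to 1834, 1928 and 1878 (0.17 ± 0.0420, adjusted p = 0.00215). SOCS5 went from 765, 714 and 721 to 881, 857 and 819.9 (0.22 ± 0.0488, adjusted p = 0.00109). These 3 increases relative to the median gene turn into decreases on the deposited scale, at -0.32, -0.36 and -0.32. SOCS1 went from 18.6, 22.6 and 29.3 to 35.2, 34.0 and 52.0 (0.75 ± 0.230, adjusted p = 0.00987, but 0.24 ± 0.240 and adjusted p = 0.349 on the deposited scale), and the call was lost without the first DMSO library (0.60, adjusted p = 0.0506) or the third MI-503 library (0.56, adjusted p = 0.0732). CISH was 651, 625 and 625 under DMSO and 581, 610.4 and 535 with MI-503 and passed narrowly (-0.14 ± 0.0570, adjusted p = 0.0437). So did SOCS4 (-0.09 ± 0.0364, adjusted p = 0.0437) and SOCS6 (-0.16 ± 0.0640, adjusted p = 0.0382), and DESeq2 called none of these last 3. SOCS3 (0.23 ± 0.187, adjusted p = 0.297) and SOCS7 (-0.01 ± 0.0453, adjusted p = 0.823) did not pass, and on the deposited scale SOCS7 did, at -0.54. In all 4 genes rose and 4 fell, beside 29.9% of all genes in each direction. The 8 calls became 4 without the first DMSO library and 5 without the third. On the deposited scale 0 rose and 8 fell, beside 903 higher and 10270 lower of 11173 called in all.

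In OCI-AML3 MI-503 raised STAT5A and CISH. STAT5A was 95.6, 105 and 84.7 under DMSO and 246, 275 and 311 under MI-503, a 2.89-fold increase (1.53 ± 0.113, adjusted p = 1.67e-07; 1.37 ± 0.281 on the deposited scale). CISH was 403, 429.8 and 439 under DMSO and 951, 815 and 866 under MI-503, a 2.06-fold increase (1.05 ± 0.0649, adjusted p = 3.72e-08; 0.89 ± 0.265, adjusted p = 0.0115, on the deposited scale). Neither gene's groups overlapped. MAPKAPK3, which overlaps CISH, also rose (0.37 ± 0.0309, adjusted p = 5.33e-07). SOCS3 was 398, 524 and 625 under DMSO and 604, 669 and 843 under MI-503, groups that overlapped (0.46 ± 0.146, adjusted p = 0.0147). That call was lost with DESeq2 (adjusted p = 0.0798), on the deposited scale (0.30) and without the first DMSO or the third MI-503 library.

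SOCS4 fell in OCI-AML3 (4642 to 4805 under DMSO and 3959.6 to 4229 with MI-503; -0.22 ± 0.0338, adjusted p = 1.11e-04), as did SOCS6 (1688 to 1723 and 1529.6 to 1599.5; -0.13 ± 0.0370, adjusted p = 0.00843). On the deposited scale neither passed (-0.38 and -0.29). SOCS2 was 256, 265 and 284 under DMSO and 271, 304 and 261 with MI-503 and did not pass (0.05 ± 0.0805, adjusted p = 0.590, 95% interval -0.12 to 0.23). Neither did SOCS1 (0.23 ± 0.136, adjusted p = 0.156), SOCS5 (-0.07 ± 0.0423, adjusted p = 0.185), SOCS7 (-0.06 ± 0.0315, adjusted p = 0.104) or STAT5B (-0.06 ± 0.0299, adjusted p = 0.117, 95% interval -0.12 to 0.01). So 3 genes rose and 2 fell, beside 32.8% of all genes in each direction. On the deposited scale 2 rose, STAT5A and CISH, and 0 fell, with 605 higher and 1071 lower among all genes. The standard errors there are larger, as for STAT5B (-0.22 ± 0.272 on the deposited scale against -0.06 ± 0.0299).

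**Figure D4:**
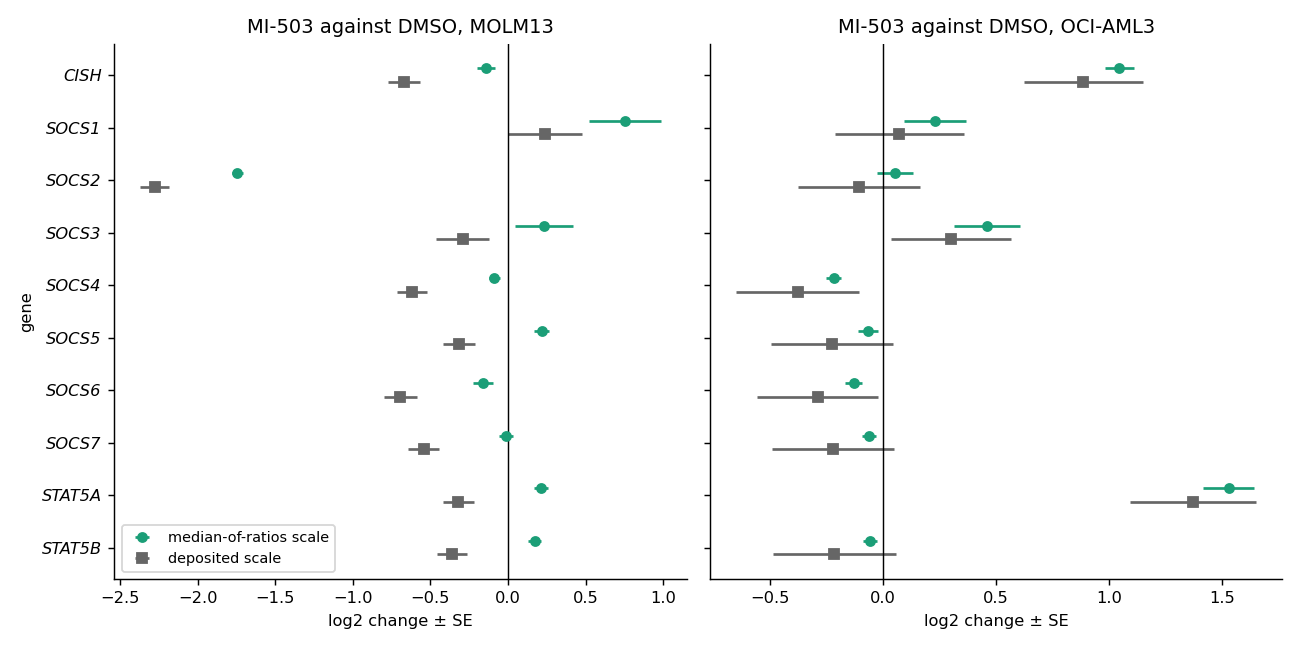
Change with MI-503 against DMSO (x axis, log2, ± standard error) for the 10 genes (y axis) in MOLM13 (left) and OCI-AML3 (right), relative to the median gene (circles) and on the deposited scale (squares). All genes move by nearly the same amount between scales, about -0.53 in MOLM13 and -0.16 in OCI-AML3, and SOCS2 in MOLM13 and CISH and STAT5A in OCI-AML3 keep their direction.

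Differences between lines in the response to MI-503 were tested directly. SOCS2 separated MOLM13 from the other lines. Its change in MOLM13 minus that in MV411 was -1.61 ± 0.0941, adjusted p = 2.61e-13, and the change in OCI-AML3 minus that in MOLM13 was 1.79 ± 0.0818, adjusted p = 3.67e-12, on the deposited scale -2.15 and 2.17. OCI-AML3 and MV411 did not differ beyond error in SOCS2 (0.18 ± 0.114, adjusted p = 0.180, 95% interval -0.06 to 0.42). CISH separated OCI-AML3 from the others, by 1.02 ± 0.103, adjusted p = 1.33e-08 over MV411 and 1.19 ± 0.0921, adjusted p = 4.58e-09 over MOLM13. MOLM13 and MV411 did not differ beyond error in CISH (-0.17 ± 0.0975, adjusted p = 0.156). On the deposited scale that difference passed (-0.70), but the median difference over all genes there was -0.52. The deposited scaling shifts MOLM13 and not MV411, so its differences between these lines carry that shift.

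STAT5A ordered the lines, with its response largest in OCI-AML3, then MV411, then MOLM13. OCI-AML3 exceeded MV411 by 0.66 ± 0.106, adjusted p = 1.06e-05 (0.50 and adjusted p = 0.0717 on the deposited scale), and MOLM13 by 1.32 ± 0.123, adjusted p = 4.78e-08, and MOLM13 differed from MV411 by -0.66 ± 0.0655, adjusted p = 6.16e-09. For STAT5B the response in MV411 was above that in MOLM13 (difference -0.22 ± 0.0672, adjusted p = 0.00886) and OCI-AML3 (difference -0.44 ± 0.0592, adjusted p = 8.92e-07). SOCS3 and SOCS1, which fell with MI-503 in MV411, differed from MV411 in MOLM13 by 0.96 ± 0.308 and 1.41 ± 0.350 (adjusted p = 0.0111 and 0.00149) and in OCI-AML3 by 1.19 ± 0.293 and 0.89 ± 0.299 (adjusted p = 0.00131 and 0.0138). On the deposited scale the SOCS3 difference of MOLM13 (0.43) and the SOCS1 difference of OCI-AML3 (0.73) did not pass. SOCS6 stood below MV411 in MOLM13 (-0.36 ± 0.108, adjusted p = 0.00704) and in OCI-AML3 (-0.33 ± 0.0965, adjusted p = 0.00589; -0.48 and not passed on the deposited scale).

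For MOLM13 against MV411, 2 genes were called higher and 4 lower (29% and 24.7% of all genes), or 1 and 8 on the deposited scale (1021 higher and 8920 lower among all genes). For OCI-AML3 against MV411 these were 4 and 2 (29.7% and 29.8%), or 2 and 1 (1152 higher and 2575 lower). For OCI-AML3 against MOLM13 they were 3 and 3 (30.5% and 32.4%), or 3 and 0 (2610 higher and 612 lower). The line comparisons share libraries, so their counts are not independent.

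**Figure D5:**
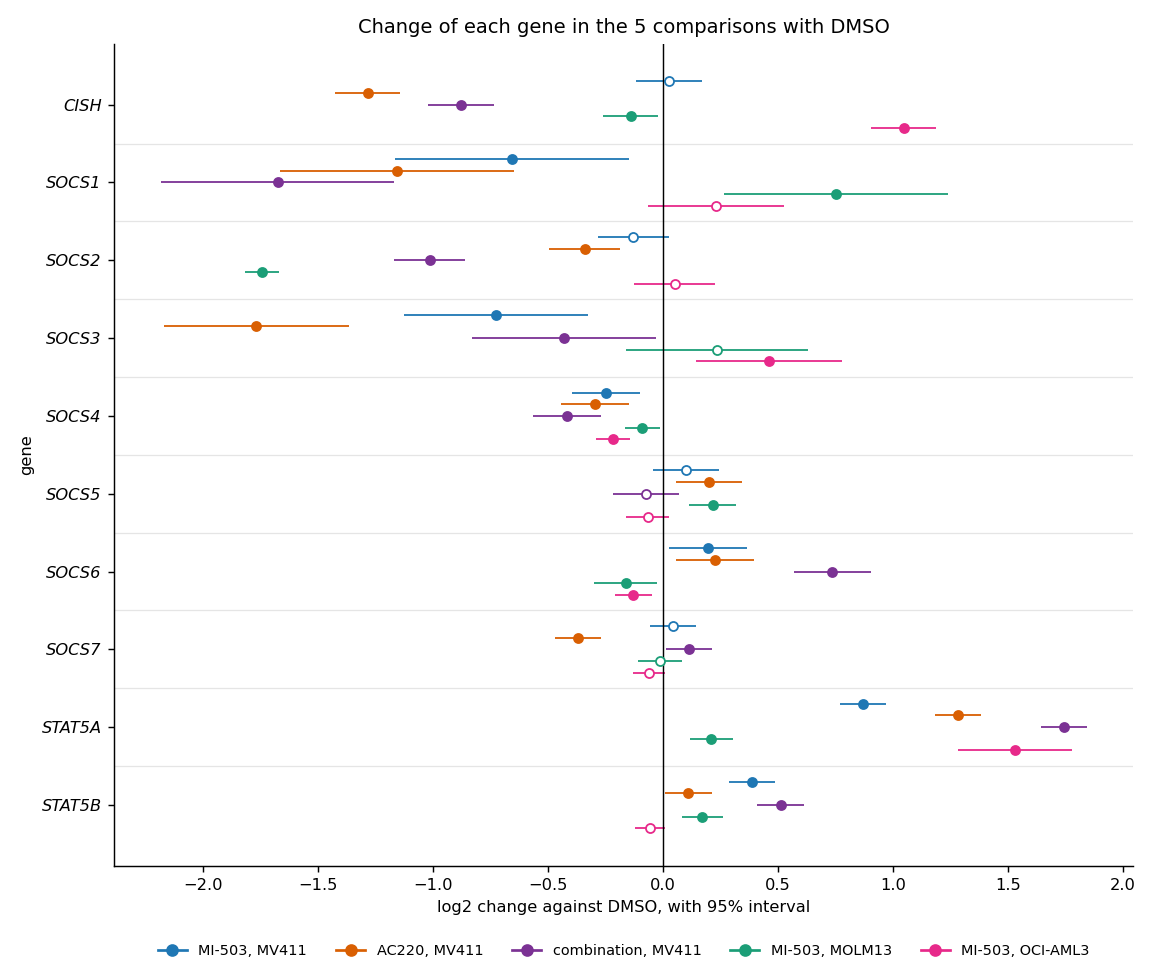
Log2 change against DMSO with its 95% interval (x axis) for each gene (y axis) in the 5 comparisons with DMSO (colours); filled points passed at an adjusted p of 0.05, and MOLM13 and OCI-AML3 values are relative to the median gene. CISH spans -1.28 with AC220 in MV411 to 1.05 with MI-503 in OCI-AML3, and SOCS2 is lowest in MOLM13 at -1.74.

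Other genes of the pathway were counted from fixed lists, to be read beside the shares of all genes called. Of all genes 29.8% rose and 30.7% fell with MI-503 in MV411, 37.7% and 37.2% with AC220, and 39.3% and 40% with both. With MI-503 the shares were 29.9% in each direction in MOLM13 and 32.8% in each direction in OCI-AML3, and on the deposited scale 903 higher and 10270 lower of 13393 tested in MOLM13, and 605 higher and 1071 lower of 15700 in OCI-AML3. Among JAK kinases, the enzymes that phosphorylate STATs, 2 of 4 rose and 1 fell with MI-503 in MV411, 3 of 4 rose and 0 fell under AC220 and 4 of 4 rose and 0 fell with both. JAK2 rose by 0.87 ± 0.0575 with AC220, and TYK2 and JAK3 by 0.82 ± 0.0550 and 0.82 ± 0.115 with both. JAK3 fell with MI-503 alone in MV411 (-0.30 ± 0.115), MOLM13 (-0.53 ± 0.0952) and OCI-AML3 (-1.60 ± 0.118). Of the other STAT genes 3 of 4 rose and 1 fell with AC220, and STAT2, which acts in type I interferon signalling, had the largest change there (1.27 ± 0.0419). Of these STAT genes 1 of 4 rose and 2 fell with MI-503 and 3 of 4 rose and 1 fell with both. Of the JAK genes 3 of 4 rose and 1 fell in MOLM13 and 1 of 4 rose and 3 fell in OCI-AML3, and on the deposited scale 0 rose and 3 fell in MOLM13, and 0 rose and 1 fell in OCI-AML3. Of the STAT genes 2 of 5 rose and 1 fell in MOLM13 and 0 of 5 rose and 3 fell in OCI-AML3, and on the deposited scale 0 rose and 4 fell in MOLM13, and 0 rose and 1 fell in OCI-AML3.

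STAT5 targets outside the family mostly fell in MV411. With MI-503 2 of 12 rose and 8 fell, median -0.64, with AC220 1 of 12 rose and 10 fell, median -1.30, and with both 1 of 12 rose and 10 fell, median -1.23. Among all genes 30.7%, 37.2% and 40% fell in these comparisons, with medians of -0.00493, 0.0123 and 0.00328. PIM1, a survival kinase gene, changed by -2.71 ± 0.0559 with AC220. ID1, an inhibitor of differentiation factors, went from 21 to 24 reads per library under DMSO to 2 to 3 under AC220, and the cyclin gene CCND1 from 25 to 37 to 2 to 7, both calls from few reads. BCL6, a repressor gene, went the other way, at 1.02 ± 0.0989 under MI-503, 1.32 ± 0.0989 under AC220 and 2.05 ± 0.0989 with both. In MOLM13 4 of 11 rose and 5 fell (1 and 7 on the deposited scale), and in OCI-AML3 7 of 11 rose and 3 fell (1 and 1), where 29.9% and 32.8% of all genes were called in each direction. BCL6 changed by 1.48 ± 0.108 in MOLM13 and by -0.73 ± 0.0518 in OCI-AML3, and ID1 by -0.92 ± 0.207 and 1.09 ± 0.0751. The list was chosen with earlier results of these data known and is no independent evidence of a direction.

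Receptors upstream were called in both directions, at shares near those of all genes in MV411. Of those that signal through STAT5, 3 of 10 rose and 4 fell with MI-503 in MV411, 5 of 10 rose and 4 fell under AC220 and 4 of 10 rose and 5 fell with both, beside 29.8% and 30.7%, 37.7% and 37.2%, and 39.3% and 40% of all genes. The prolactin receptor gene PRLR rose with MI-503 (2.92 ± 0.176) and fell with AC220, from 37 to 47 reads per library to 4 to 6. IL2RB, a chain of the interleukin 2 receptor, fell with each treatment, from 46 to 59 reads per library under DMSO to 0 to 5 in the 9 treated libraries. IL7R, the receptor chain for interleukin 7, fell with MI-503 (-1.65 ± 0.164), AC220 (-3.23 ± 0.164) and both (-4.82 ± 0.164). KIT rose with both (2.18 ± 0.108), but its reads were highest under AC220 alone. KIT had 94 to 113 reads per library under DMSO, 112 to 132 under MI-503, 651 to 678 under AC220 and 382 to 530 with both. In MOLM13 8 of 10 rose and 1 fell (7 and 1 on the deposited scale), with IL7R at 2.91 ± 0.0936 and CSF1R, the receptor of macrophage colony-stimulating factor, at 2.43 ± 0.0900. In OCI-AML3 3 of 9 rose and 4 fell (2 and 2), with CSF1R at -2.46 ± 0.110, PRLR at 2.63 ± 0.0873 and FLT3 at -1.07 ± 0.0339. The lower FLT3 with MI-503 was not particular to OCI-AML3. In MV411 FLT3 had 16660 to 18272 reads per library under DMSO and 9283 to 9833 under MI-503. It had 29795 to 31870 there under AC220 and 11666 to 14028 with both. In MOLM13 it had 12434 to 13067 under DMSO and 7559 to 8446 under MI-503. Of receptors that signal through STAT3, 4 of 4 rose and 0 fell under AC220 and 4 of 4 rose and 0 fell with both, where 37.7% and 39.3% of all genes rose, and IL10RA, the interleukin 10 receptor, changed by 1.78 ± 0.0479 with both. With MI-503 3 of 4 rose and 0 fell in MV411, 3 of 5 rose and 2 fell in MOLM13 and 2 of 6 rose and 4 fell in OCI-AML3, and on the deposited scale 1 rose and 2 fell in MOLM13, and 0 rose and 2 fell in OCI-AML3.

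Of other brakes on the pathway, phosphatases, PIAS proteins and CBL-type ligases, 4 of 11 rose and 3 fell under MI-503, 5 of 11 rose and 4 fell under AC220 and 7 of 11 rose and 2 fell with both, beside 29.8% and 30.7%, 37.7% and 37.2%, and 39.3% and 40% of all genes. CBLB, a ubiquitin ligase gene, changed by 0.97 ± 0.0848 with both, and PTPN2, a phosphatase that acts on JAK kinases, by 0.65 ± 0.0532 with AC220. In OCI-AML3 SH2B3, an adaptor that restrains JAK2, changed by -1.14 ± 0.0281. Of these brakes 4 of 11 rose and 1 fell in MOLM13 and 3 of 11 rose and 4 fell in OCI-AML3, and on the deposited scale 0 rose and 11 fell in MOLM13, and 0 rose and 2 fell in OCI-AML3. Of the genes of the ubiquitin ligase that SOCS boxes recruit, 1 of 5 rose and 3 fell under MI-503, 1 of 5 rose and 2 fell under AC220 and 1 of 5 rose and 2 fell with both, beside the same shares of all genes. TCEB1, the elongin C gene that contacts the SOCS box, fell with MI-503 (-0.74 ± 0.0482), AC220 (-0.87 ± 0.0482) and both (-1.27 ± 0.0482). Of its genes 0 of 5 rose and 3 fell in MOLM13 and 3 of 5 rose and 0 fell in OCI-AML3, and on the deposited scale 0 rose and 5 fell in MOLM13, and 0 rose and 0 fell in OCI-AML3.

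The genes most like each member over the 12 MV411 libraries, by Pearson r of log2(level + 1) among 11557 genes with a group mean of at least 100, are given as a description, since all share libraries and treatments. STAT5A was nearest to SEMA4A (r = 0.997), LINC00847 (r = 0.997), TMEM63A (r = 0.997), genes that also stood highest with both drugs. STAT5B was nearest to ATP6V1F (r = 0.986), TSPAN15 (r = 0.985), YIF1A (r = 0.985). CISH was nearest to LY6E (r = 0.991), TACC3 (r = 0.990), FOXM1 (r = 0.989), and FOXM1 and TACC3 are genes of the dividing cell. SOCS2 was nearest to PPA2 (r = 0.985), AGPAT5 (r = 0.985), VPS13A (r = 0.984), and SOCS1 to MROH8 (r = 0.984), AAMP (r = 0.975), SDHA (r = 0.970). SOCS3 had less close neighbours, DNMT3B (r = 0.942), SMIM4 (r = 0.931), MLXIPL (r = 0.929). SOCS7 was nearest to NRP1 (r = 0.992), MFSD2A (r = 0.980), LOC101929099 (r = 0.970) and SOCS6 to BACH1 (r = 0.986), SH3BP5-AS1 (r = 0.975), GCLC (r = 0.970). SOCS4 was nearest to ACTR6 (r = 0.994), DSTN (r = 0.984), SCOC (r = 0.981) and SOCS5 to BTAF1 (r = 0.924), CERKL (r = 0.910), ZZZ3 (r = 0.907).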

How the data were processed

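RNA of 24 libraries of MV411, MOLM13 and OCI-AML3 was analysed from 3 deposited tables of 25680 genes, and 0 columns were left out. Per the labels, synthetic control RNA went into the harvested cells before isolation, reads were paired 50 bp and triplicates were biological, without saying how cultures were separated, so p-values measure only the spread between them. Per the submitters' processing notes DESeq version 2 and hg38 were used. The aligner, counter and annotation are not given in the sources used here. The deposited signal is a normalised value per gene. In each library every value (100% within a tolerance of 0.001) was a whole number divided by 1 factor, so reads were recovered. The factors equal median-of-ratios factors in MV411 and not in the other tables, although all are named for normalisation to ERCC control RNA.

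Recovered reads were divided by median-of-ratios factors and tested with limma 3.58.1 in R 4.3.3 on log2(value + 1), two-sided, with a variance trend, for genes with at least 10 in at least 3 libraries. The 12 MV411 libraries shared 1 fit. The interaction is the change with both drugs less the sum of the single changes. Line differences are differences of within-line changes over genes kept in both tables. edgeR 4.0.16 and DESeq2 1.42.0 on recovered reads were alternatives, with other scalings, pseudocounts, filters, blocks and libraries left out. The script was tested on simulated data for MI-503 against DMSO in each line, with far fewer genes changed than were called here. The interaction and the line differences were not simulated. The naming rule was all 10 members in every comparison, up to 3 passing genes with the largest change per list and comparison, of which the text gives some, and the 3 most similar genes per member. The values of BCL6 with AC220, of KIT with each drug alone and of FLT3 in MV411 and MOLM13 lie outside that rule. They were added after they were seen. One further marker list is not reported here. Members and lists were chosen with earlier results of these data known. Gene positions, exon lengths and overlaps came from GENCODE v29 and promoters from RefSeq.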

Additional observations from a re-analysis of the deposited data

Results flagged for a closer look

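The response to MI-503 differed between lines by a direct limma test (adjusted p under the threshold of 0.05) for the following genes, given as log2 differences relative to the median gene. MOLM13 minus MV411 was called for SOCS1 (1.41), SOCS2 (-1.61), SOCS3 (0.96), SOCS6 (-0.36), STAT5A (-0.66), STAT5B (-0.22). OCI-AML3 minus MV411 was called for CISH (1.02), SOCS1 (0.89), SOCS3 (1.19), SOCS6 (-0.33), STAT5A (0.66), STAT5B (-0.44). OCI-AML3 minus MOLM13 was called for CISH (1.19), SOCS2 (1.79), SOCS4 (-0.13), SOCS5 (-0.28), STAT5A (1.32), STAT5B (-0.23). The exposure was 3 days in MV411 and 4 days in the other lines, so line and exposure time cannot be told apart in the comparisons with MV411. The SOCS4, SOCS5 and STAT5B differences between OCI-AML3 and MOLM13 change sign on the deposited scale. That SOCS4 call was also lost with equal totals (adjusted p = 0.232) and on leaving out any of 5 of 12 libraries. On the deposited scale SOCS3 did not pass for MOLM13 minus MV411, nor did SOCS1, SOCS6 and STAT5A for OCI-AML3 minus MV411. The SOCS1 differences rest on few reads, 20 to 53 per library in MOLM13 and 22 to 46 in the MV411 groups compared.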

How the results depend on the processing

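Direction and call were compared under up to 12 other settings and with each library left out (fitting only the groups compared applied to 6 comparisons, and a minimum of 50 left 109 gene results), which gave in all 2194 results on the same side of the threshold, 110 that lost it, 17 that gained it and 8 that reversed. edgeR and pseudocounts of 0.5 and 8 changed no gene's call. All reversals came on the deposited scale: for MI-503 in MOLM13, SOCS5 at -0.32, STAT5A at -0.32 and STAT5B at -0.36, for MOLM13 minus MV411, SOCS4 at -0.37 and SOCS5 at -0.42, and for OCI-AML3 minus MOLM13, SOCS4 at 0.24, SOCS5 at 0.0889 and STAT5B at 0.14. By construction they add the shift of every gene. That scale also left 2 calls in place of 5 for MI-503 in OCI-AML3 and 3 in place of 6 for OCI-AML3 minus MV411 and minus MOLM13. Over all genes it called 1676 in place of 10299, 3727 in place of 8159 and 3222 in place of 8188 in these comparisons, and 11173 in place of 8015 in MOLM13. DESeq2 called 5 genes in MOLM13 in place of 8, and the cause was not tested. Leaving out single libraries gave 5 to 8 calls for the combination against MI-503 and 4 to 7 for MI-503 in MOLM13, with 4 without the first DMSO library and 5 without the third. Same-numbered libraries showed little shared deviation (r -0.084 to 0.12 in MV411, 1 of 18 pairs over 0.1, and at most 0.07 in the other lines). Numbers were therefore not treated as pairs. Correlations of this kind cannot show how the cultures were set up. The fit with the replicate block moved 2 calls, SOCS3 with both drugs (-0.43, adjusted p = 0.0516) and SOCS1 for OCI-AML3 minus MOLM13 (-0.52, adjusted p = 0.0476). In MV411 SOCS1 rests on 10 to 46 reads per library, and its 95% intervals are wide, as from -1.16 to -0.15 under MI-503. Its interaction did not pass, and interactions within its interval of -0.58 to 0.85 were not detectable at this depth.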

Other observations

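Gene groups next to the SOCS system were also counted. Of other genes with a SOCS box, 6 of 13 rose and 2 fell with MI-503 in MV411, 7 of 13 rose and 3 fell with AC220 and 8 of 13 rose and 2 fell with both. Among all genes 29.8% rose and 30.7% fell with MI-503 in MV411, 37.7% and 37.2% with AC220, and 39.3% and 40% with both. SPSB1, an adaptor that marks nitric oxide synthase and TGF-beta receptor for degradation, had the largest change, 3.18 ± 0.163 with both drugs, and SPSB2 changed by 1.00 ± 0.0954 with AC220. In MOLM13 5 of 13 rose and 3 fell and in OCI-AML3 5 of 13 rose and 2 fell, and on the deposited scale 0 rose and 11 fell in MOLM13, and 0 rose and 0 fell in OCI-AML3. Of genes of the interferon gamma response, which SOCS1 is known to restrain, 2 of 6 rose and 3 fell with MI-503 in MV411, 3 of 6 rose and 3 fell with AC220 and 2 of 6 rose and 3 fell with both, beside the same shares of all genes. CIITA, the activator of MHC class II genes, rose in all of these and with MI-503 in MOLM13 (2.68 ± 0.228) and OCI-AML3 (2.10 ± 0.160). GBP2, a guanylate-binding protein gene, fell in MV411 (-1.65 ± 0.0779 with AC220) and rose in MOLM13 (2.12 ± 0.105) and OCI-AML3 (1.21 ± 0.0821). In MOLM13 5 of 6 rose and 1 fell and in OCI-AML3 4 of 7 rose and 2 fell, and on the deposited scale 2 rose and 2 fell in MOLM13, and 2 rose and 1 fell in OCI-AML3.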
